A study of Mus musculus with 10 samples.

Results

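The 8 genes described here, Gpx3, Pon1, Cyp2b10, Cbr2, Aox3, Fmo2, Cat and Cst8, were chosen as detoxification genes with a high level in lineage-labelled alveolar type II (AT2) cells of Confetti mice. They were matched by symbol among 31053 genes listed for each library, and all 8 were found and passed the filter on low counts. They were chosen with earlier results of these data known, above all the comparison of Red2Kras RFP+ cells with Confetti cells, so their levels against Confetti are a description without a test. The question put to them was which genes were low in every Red2Kras library and which were low in RFP+ cells alone.

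Single-cell RNA was counted in EpCAM+ cells sorted by colour from the distal lungs of adult mice of both sexes with a mixed background of C57BL/6Brd-Tyrc-Brd. All mice carried Sftpc-CreERT2, a tamoxifen-inducible Cre driven by an AT2 surfactant promoter, and all received 3 doses of tamoxifen at 0.2 mg per g body weight. In R26R-Confetti mice, RFP+ and YFP+ cells are both wildtype, and each colour had 1 library. In Red2Kras mice, red fluorescence (RFP+) marks the mutant cells and YFP+ cells are their wildtype neighbours from the same lungs, and each colour was sampled in 2 libraries 4 days after induction and in 2 more after 2 weeks. The labels give no time for the Confetti libraries, which the methods of the study place at 2 weeks. Lungs were pooled for each of the 10 libraries in 6 groups. By the methods the libraries were generated across 2 days, and no label gives the day of each. RFP+ and YFP+ cells were sorted from the same lungs, so the colours are not independent pools of mice, and by the methods the 2 Confetti libraries are the colours of 1 collection. Tests treat each library as a sample, and their p-values measure the spread between these libraries only.

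Detoxification in lung epithelium rests on a few linked enzyme systems. Peroxide-removing enzymes such as catalase and the glutathione peroxidases clear oxidants, monooxygenases such as the cytochromes P450 and flavin-containing monooxygenases oxidise inhaled chemicals, and reductases, oxidases and esterases act on the aldehydes, ketones and lactones that arise. AT2 cells and the secretory club cells of the airway are both known for these enzymes. By role, Gpx3 (a secreted selenium-containing glutathione peroxidase) and Cat (the peroxisomal catalase) remove peroxides, Cyp2b10 (a P450 induced through the nuclear receptor CAR) and Fmo2 (the main flavin-containing monooxygenase of lung) oxidise foreign compounds, Cbr2 (a lung carbonyl reductase) and Aox3 (an aldehyde oxidase) act on carbonyl groups, and Pon1 (a paraoxonase carried on high-density lipoprotein) hydrolyses lactones and organophosphates. Cst8 belongs to the cystatin family of protease inhibitor relatives and is not an enzyme of detoxification, so the name of the group does not describe it.

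The genes lie at 8 separate places of the GRCm38 genome, on 5 chromosomes. Gpx3 (ENSMUSG00000018339) spans chr11:54902453-54910377 on the plus strand and Cbr2 (ENSMUSG00000025150) chr11:120729489-120732114 on the minus strand. Aox3 (ENSMUSG00000064294) spans chr1:58113130-58200698 on the plus strand and Fmo2 (ENSMUSG00000040170) chr1:162874317-162898726 on the minus strand. Cat (ENSMUSG00000027187) spans chr2:103453849-103485160 on the minus strand and Cst8 (ENSMUSG00000027442) chr2:148798785-148805595 on the plus strand. Pon1 (ENSMUSG00000002588) spans chr6:5168090-5193946 on the minus strand and Cyp2b10 (ENSMUSG00000030483) chr7:25897620-25926624 on the plus strand. Cyp2b10 has close paralogs. Over alveolar cells Cyp2b9, Cyp2b19 and Cyp2b23 had 0 UMIs and Cyp2b13 had 3, against 1835 for Cyp2b10. Whether reads were shared between them was not tested.

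Promoter windows are shown for Gpx3, the gene low in every Red2Kras library, and for the 3 genes whose windows hold a C/EBP motif. Each is the stretch before the RefSeq start site with annotated exon bases left out (RefSeq sequence, GRCm38.p6), written 5′ to 3′ on the strand of the gene. Capitals mark a match to the C/EBP motif TTGCNNAA, searched on both strands. The Gpx3 window (chr11:54902604-54902771, plus strand) holds no such match, and it lies inside the gene span given above, since the RefSeq start used for it is downstream of the start of that span. The Pon1 window (chr6:5193947-5194196, minus strand), the Cyp2b10 window (chr7:25897408-25897619, plus strand) and the Fmo2 window (chr1:162898759-162899008, minus strand) hold 1 marked match each.
Gpx3: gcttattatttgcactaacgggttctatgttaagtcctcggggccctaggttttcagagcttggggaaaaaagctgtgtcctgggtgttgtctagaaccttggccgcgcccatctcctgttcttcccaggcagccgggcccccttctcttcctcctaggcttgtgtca
Pon1: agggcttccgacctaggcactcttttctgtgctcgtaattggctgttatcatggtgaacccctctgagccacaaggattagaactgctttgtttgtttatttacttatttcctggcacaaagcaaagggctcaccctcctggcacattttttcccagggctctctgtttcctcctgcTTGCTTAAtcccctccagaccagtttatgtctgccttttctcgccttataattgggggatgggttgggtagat
Cyp2b10: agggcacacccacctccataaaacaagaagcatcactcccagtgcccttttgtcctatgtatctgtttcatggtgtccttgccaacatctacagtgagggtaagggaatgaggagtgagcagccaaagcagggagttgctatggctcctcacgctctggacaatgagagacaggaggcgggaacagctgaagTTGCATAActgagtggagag
Fmo2: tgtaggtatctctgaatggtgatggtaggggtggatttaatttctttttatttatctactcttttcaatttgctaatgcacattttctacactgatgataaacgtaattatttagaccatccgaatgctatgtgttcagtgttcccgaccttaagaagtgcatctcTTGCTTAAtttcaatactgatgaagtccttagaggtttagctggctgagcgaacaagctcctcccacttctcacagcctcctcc

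Over the RefSeq windows of 250 bases before and 50 bases after the start, TTGCNNAA occurred in 10.8% of 32851 windows and in those of 3 of the 8 genes, beginning at position -73 for Pon1, -58 for Cyp2b10 and -84 for Fmo2. The nuclear receptor half-site AGGTCA occurred in 16.3% of windows and in those of Fmo2, Cat and Cst8. The antioxidant response element core TGACNNNGC (12.4% of windows), the NKX2-1 motif CAAGTG (13.6%) and the TATA box TATAAA (13.6%) occurred in none of the 8. All were searched on both strands, the reverse complement of AGGTCA begins with the TGAC of the antioxidant core so that these can overlap, and a match is a description of the sequence only.

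The libraries held 2144 to 6213 barcodes and 10742481 to 79927159 UMIs each, and 29582 of 32698 cells past the quality filters fell in alveolar clusters. Libraries of 1 group did not look alike. AT2-like cells made up 96.2% and 96.7% of alveolar cells in the Confetti libraries, 89.6% and 95% in the first RFP and YFP libraries at 4 days, and 1.12% to 18.5% in the other 6 Red2Kras libraries. Confetti libraries held no cell called male, the first Red2Kras libraries were mixed (25.8% to 85.1% female among called cells), and at most 0.535% of called cells in the second libraries were female. The line of mice and, at 4 days, time therefore cannot be told apart in the difference between Confetti and Red2Kras, and sex can be matched between the lines only through the female cells of the first Red2Kras libraries. The day of preparation is not known by library, and its part in these differences was not tested. The 11 AT2 markers summed to 190935 and 233879 CPM (UMIs relative to the library total) in Confetti and to 106357 to 292181 CPM in Red2Kras libraries, with none at 0. Sums over cells cannot tell fewer cells of a type from less RNA per cell.

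Gpx3 was the only gene of the 8 that was low in every Red2Kras library. Its level, as CPM over all alveolar cells after TMM scaling, was 87.7 in Confetti RFP and 87.1 in Confetti YFP. At 4 days the RFP libraries were at 0.101 and 0.928 CPM, and the YFP libraries at 0.188 and 2.10 CPM. Wildtype and mutant cells of the Red2Kras lungs were thus both far below the Confetti cells. At 2 weeks the RFP libraries were at 1.78 and 0.465 CPM and the YFP libraries at 4.22 and 4.81 CPM. No Red2Kras library passed 5.52% of the lower Confetti library. The lowest values rest on 2 UMIs each in the first 4 days RFP and YFP libraries, against 1453 and 1330 UMIs in Confetti. Against Confetti the fitted log2 fold change was -7.77 (SE 1.15) for 4 days RFP, -6.13 (SE 1.01) for 4 days YFP, -6.23 (SE 0.97) for 2 weeks RFP and -4.29 (SE 0.91) for 2 weeks YFP. The YFP libraries at 2 weeks were the highest of the Red2Kras libraries, and they did not overlap the 2 weeks RFP libraries.

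Cat, the other peroxide-removing gene, showed the smallest range. It was at 271 and 317 CPM in Confetti, 198 and 75.4 CPM in RFP cells at 4 days, and 272 and 156 CPM in YFP cells at that time. At 2 weeks it was at 80.7 and 65.7 CPM in RFP and at 154 and 133 CPM in YFP. The first 4 days YFP library lay within the Confetti range, while both 2 weeks RFP libraries lay below every YFP library. Cat was below 0.5 times the lower Confetti library in 4 of 8 Red2Kras libraries, of which 3 were RFP, and in no library did it fall under 24.2% of it.

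The 2 monooxygenases differed from each other in the YFP cells. Cyp2b10 was at 32.8 and 34.4 CPM in Confetti, 2.33 and 1.16 CPM in RFP cells at 4 days, and 8.0 and 2.45 CPM in YFP cells at that time. At 2 weeks it was at 1.60 and 0.880 CPM in RFP and at 11.3 and 19.6 CPM in YFP. All 4 RFP libraries lay below all 4 YFP libraries, and the second 2 weeks YFP library, at 59.5% of the lower Confetti library, was the only one not under 0.5 times it. Fmo2 was at 13.2 and 10.9 CPM in Confetti, 8.75 and 0.232 CPM in RFP cells at 4 days, and 6.96 and 1.52 CPM in YFP cells at that time. At 2 weeks it was at 3.77 and 3.18 CPM in RFP and at 3.09 and 0.962 CPM in YFP. Fmo2 is the only one of the 8 whose 2 weeks RFP libraries both lay above both YFP libraries, by a fitted log2 fold change of 0.66 (SE 1.14), which is smaller than its error.

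Cbr2 and Aox3, the carbonyl enzymes, differed widely between the 2 libraries of each group at 4 days. Cbr2 was at 3339 and 3200 CPM in Confetti, 2253 and 303 CPM in RFP cells at 4 days, and 3062 and 905 CPM in YFP cells at that time. At 2 weeks it was at 340 and 68.3 CPM in RFP and at 1363 and 1147 CPM in YFP. The first 4 days YFP library reached 95.7% of the lower Confetti library while the second 2 weeks RFP library was at 2.13% of it. Aox3 was at 155 and 132 CPM in Confetti, 115 and 15.1 CPM in RFP cells at 4 days, and 181 and 35.4 CPM in YFP cells at that time. At 2 weeks it was at 31.8 and 12.5 CPM in RFP and at 65.6 and 35.9 CPM in YFP. Aox3 was above both Confetti libraries in the first 4 days YFP library and below them in the other 7.

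Pon1 was at 107 and 78.7 CPM in Confetti, 9.76 and 0.464 CPM in RFP cells at 4 days, and 43.0 and 3.8 CPM in YFP cells at that time. At 2 weeks it was at 1.34 and 0.318 CPM in RFP and at 13.5 and 6.25 CPM in YFP. The first 4 days YFP library, at 54.7% of the lower Confetti library, was the only one above 0.5 times it. Cst8 had the same order of groups, with 153 and 119 CPM in Confetti, 50.6 and 8.01 CPM in RFP cells at 4 days, and 88.3 and 35.6 CPM in YFP cells at that time. At 2 weeks Cst8 was at 11 and 3.94 CPM in RFP and at 41.3 and 36.7 CPM in YFP. For both genes the 2 weeks RFP libraries lay below all 4 YFP libraries.

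**Figure D1:**
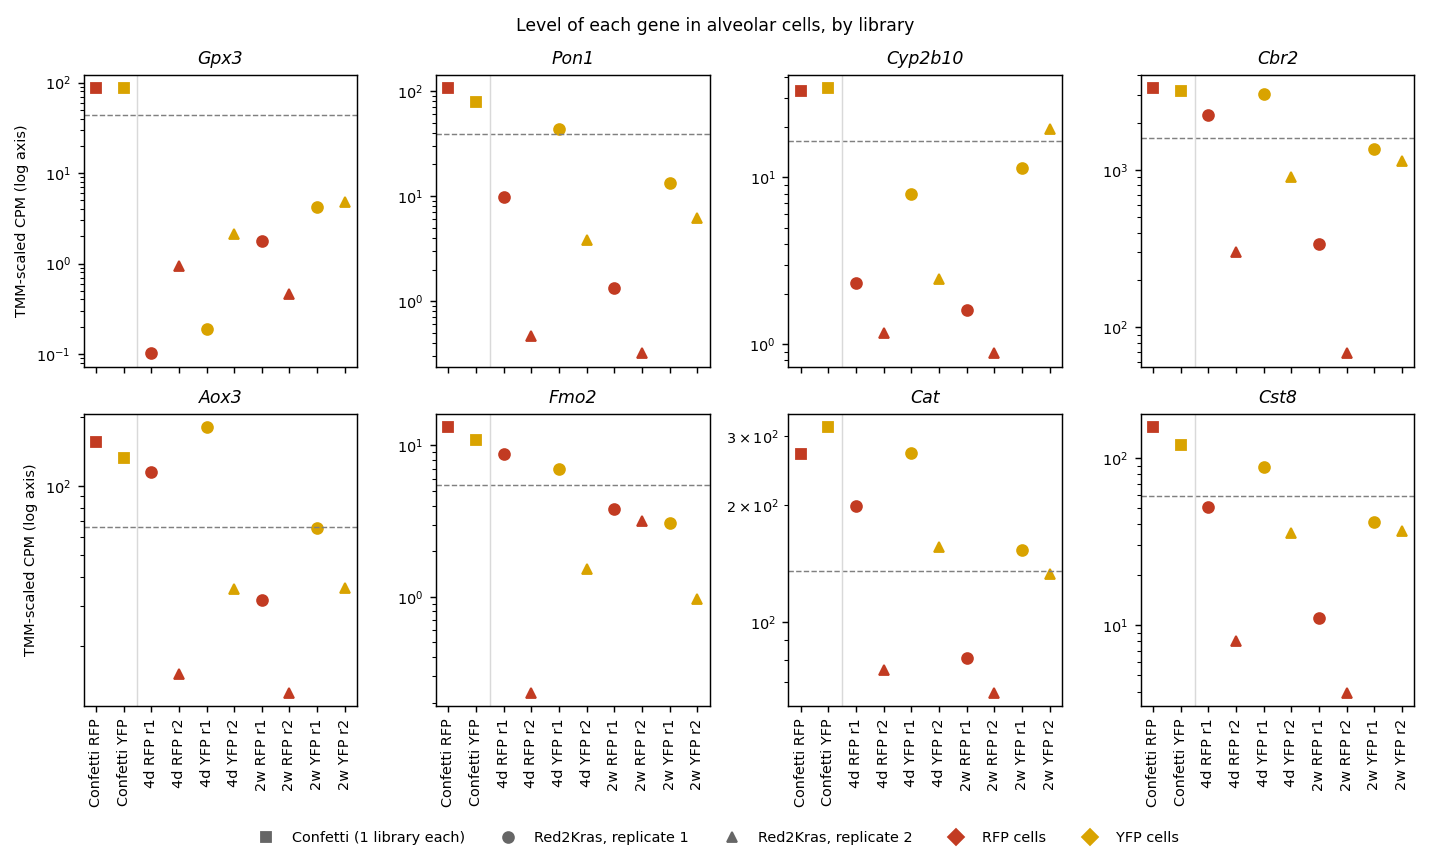
Level of each of the 8 genes (TMM-scaled CPM over alveolar cells, log axis) in each of the 10 libraries, with squares for Confetti, circles for replicate 1, triangles for replicate 2, red for RFP and yellow for YFP, and a dashed line at 0.5 times the lower Confetti library. Only Gpx3 has all 8 Red2Kras libraries below that line, the highest of them at 4.81 CPM.

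A gene was called low in a library when it lay below 0.5 times the lower Confetti library. By this rule Gpx3 was low in all 8 Red2Kras libraries, Pon1, Cyp2b10 and Cst8 in 7, Cbr2, Aox3 and Fmo2 in 6, and Cat in 4. None of the 8 genes was low in the 4 RFP libraries and in no YFP library. Among 13343 genes, 0.202% were low in all 8 libraries (0.0675% at 0.25 times, where Gpx3 was again the only one of the 8), 0.127% were low in the 4 RFP libraries alone, and 7.47% were low in both 2 weeks RFP libraries. Since the genes were chosen on the 2 weeks RFP libraries, nothing is read from their 8 of 8 there. Below both Confetti libraries in all 8 were 6 of the 8 genes (not Aox3 or Cat), against 7.04% of genes. The genes were also chosen as high in Confetti, so nothing is read from this count either. The values nearest the threshold were 48.9% (Cat, second 2 weeks YFP library) and 49.5% (Aox3, first 2 weeks YFP library) inside it, and 54.7% (Pon1, first 4 days YFP library) outside it.

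The count of genes low throughout changed with the libraries taken, in checks chosen after the data had been seen. Without both second 4 days libraries, which held 41 and 33 AT2-like cells, Gpx3 remained the only one of the 8 low in the other 6 (0.262% of genes). With the libraries numbered 1 alone, Gpx3 and Cyp2b10 were low in all 4 (0.322% of genes). With those numbered 2 alone, 6 of the 8 were (1.85% of genes), which left out Cyp2b10 and Cat. Pon1 and Cyp2b10 also became low in all 8 when CPM was used without TMM scaling (0.24% of genes) or when the other cell types were added (0.214% of genes).

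Because the share of AT2-like cells differed between libraries, the same values were taken over AT2-like cells only. The clusters were formed without these genes among the variable genes. Gpx3 kept its pattern, with 91.0 and 97.8 CPM in Confetti and at most 0.861 CPM in the first libraries of each Red2Kras group, on 1, 1, 1 and 3 UMIs. In the second libraries Gpx3 had 0 UMIs, which allows up to 16 CPM in RFP and 21.6 CPM in YFP cells at 4 days, and 8.67 CPM in RFP and 6.06 CPM in YFP cells at 2 weeks. In the first libraries Gpx3 was thus low within AT2-like cells. Cyp2b10 was at 34.1 and 38.9 CPM in Confetti AT2-like cells and lay below 0.5 times the lower one in 6 libraries, with the second 2 weeks YFP library at 26.2 CPM. The second 4 days YFP library, at 0 Cyp2b10 UMIs, cannot be placed, since its limit of 21.6 CPM is above that threshold.

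The other genes over AT2-like cells are given next. Pon1 was at 113 and 90.6 CPM in Confetti, 10.9 and 0 CPM in RFP cells at 4 days, and 44.8 and 36.0 CPM in YFP cells at that time. In AT2-like cells at 2 weeks Pon1 was at 11.3 and 2.89 CPM in RFP and at 59.7 and 50.5 CPM in YFP. Every YFP library was thus above every RFP library for Pon1. Cst8 was at 159 and 135 CPM in Confetti, 54.2 and 5.33 CPM in 4 days RFP, 39.0 and 46.2 CPM in 2 weeks RFP, and 76.1 to 90.9 CPM in the 4 YFP libraries. Over AT2-like cells Cst8 was the only one of the 8 that was low in the 4 RFP libraries and in no YFP library (0.0685% of 11682 genes), and several of these values rest on few UMIs, 1 in the second 4 days RFP library. Cbr2 ranged from 36.3% to 89.6% of the lower Confetti library, Cat from 45.2% to 98.0% and Aox3 from 31.5% to 123%. Fmo2 ranged from 0 UMIs in 2 libraries to 115% in the second 4 days YFP library, where it rests on 2 UMIs in 33 cells and is no measured level.

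**Figure D2:**
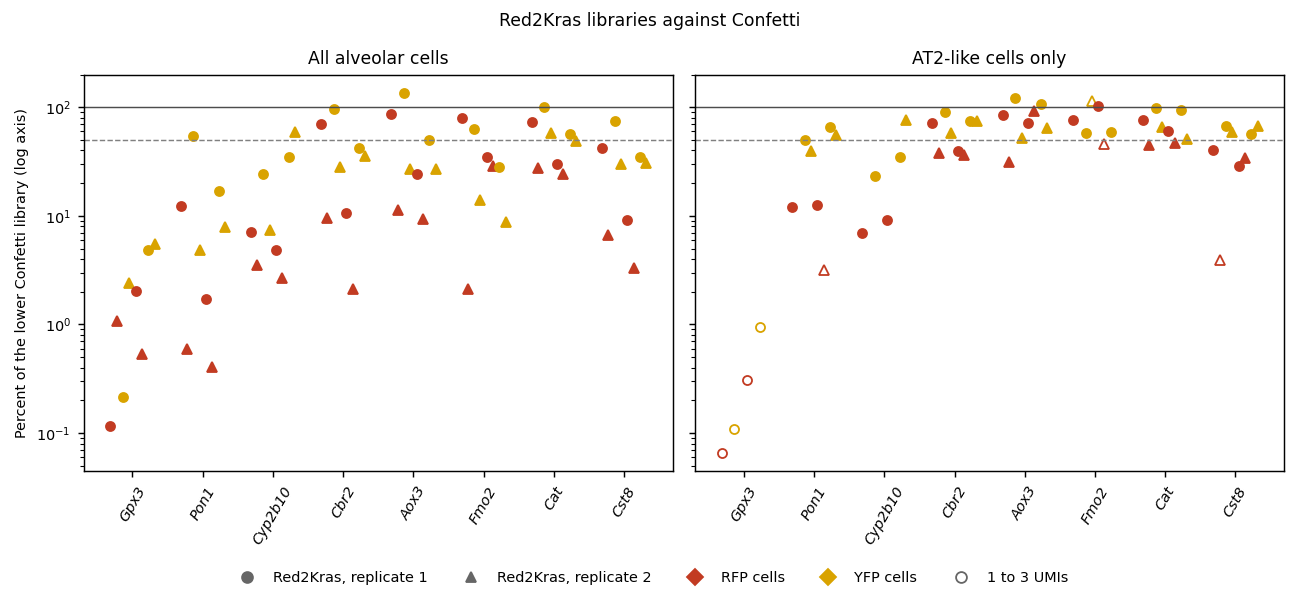
Level of each gene as a percent of the lower Confetti library (log axis) in the 8 Red2Kras libraries, over all alveolar cells and over AT2-like cells only, with lines at 100% and 0.5 times (dashed), open symbols for values on 1 to 3 UMIs, and libraries with 0 UMIs not drawn. In AT2-like cells the 4 libraries with a Gpx3 UMI are at or below 0.946%, while Cbr2, Cat and Aox3 lie at 31.5% to 123%.

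The share of cells with at least 1 UMI gave a further readout. Gpx3 was seen in 24.1% and 21.9% of alveolar cells in Confetti and in 0.0538% to 2.81% in Red2Kras libraries, although the median depth was 4004 and 3251 UMIs per cell in Confetti and 4729.5 to 15813 in Red2Kras. Immune cells, taken as the measure of free RNA, held a Gpx3 UMI in 9.93% of cells in Confetti (median 4434 UMIs) and 4.48% in Red2Kras (median 7311 UMIs), and every Red2Kras alveolar share was below the immune share of that line and is read as background. Each cell was thinned to 2000 UMIs to compare at equal depth, which left out 0 to 6 cells per library. Gpx3 was then seen in 13.6% and 14.8% of cells in Confetti and in 0 to 0.991% in Red2Kras. Pon1 was in 26.0% and 21.0% of Confetti cells and 0.280% to 16.7% of Red2Kras cells, against 4.26% and 0.527% of immune cells. Cbr2 was in 99.4% and 99.5% of Confetti cells and 15.2% to 99.2% of Red2Kras cells, against 41.8% and 10.1% of immune cells. The share was below both Confetti libraries in all 8 for 4 of the 8 genes before thinning, against 0.405% of 13343 genes, and for 7 after it, against 7.97%. The genes were chosen as high in Confetti, so nothing is read from these counts.

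Within Confetti, Gpx3 was at 146 and 263 CPM in the primed AT2-like cells (37 and 15 cells) and at 39.0 and 55.9 CPM in the cycling cells of Confetti RFP and YFP, beside 29.7 CPM (95% counting interval 18.1 to 45.9) in immune cells of that line. In the Red2Kras libraries the primed AT2-like cells were at 0 to 4.88 CPM, beside 6.29 CPM (5.24 to 7.49) in immune cells. Different clusters hold most of this class in different groups: 84.1% of one came from the first 2 weeks YFP library, 85.6% and 88.1% of 2 others from the second and first 2 weeks RFP libraries, and 58.8% of a further one from the second 4 days YFP library. Fmo2 in primed AT2-like cells of 2 weeks RFP was at 5.03 and 5.22 CPM, whereas Cbr2 was at 465 and 98.9 CPM there.

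The tests that the choice of genes did not use compared RFP with YFP cells at 4 days, and YFP cells between the 2 times. At 4 days Pon1 was at 5.11 CPM ± 6.57 in RFP and 23.4 CPM ± 27.7 in YFP (SD, n = 2), or -2.10 on the log2 scale (SE 1.27, adjusted p = 0.924 in edgeR's quasi-likelihood test). Cyp2b10 was at 1.74 CPM ± 0.824 and 5.23 CPM ± 3.92, or -1.49 on the log2 scale (SE 0.63, adjusted p = 0.865, unadjusted p = 0.0446 in edgeR). Neither difference passed the test. Between libraries of the same number, RFP was below YFP in both pairs for 7 of the 8 genes, all but Fmo2, and 32% of all genes did the same. For Gpx3 the first pair rests on 2 UMIs in each library, so its direction there is no measured difference. With the replicate number as a block, the adjusted p in edgeR was 0.506 for Pon1 and 0.578 for Cyp2b10, and 0 genes were called. Without the filter on low counts it was 4.90e-07 for Pon1 and 0.0101 for Cyp2b10 (edgeR), and both were then called. Many genes outside the 8 were called in that fit too, and the count over all genes is given in the last section. Of the other 6, Gpx3, Cbr2, Aox3, Cat and Cst8 had negative values (-1.64 to -0.63) and Fmo2 was at 0.17, with adjusted p from 0.956 to 0.997 in edgeR. Across all 13782 genes, edgeR called 0 (0%) in this comparison, 780 (5.66%) had an unadjusted p under 0.05, and DESeq2 called 100.

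For YFP cells at 2 weeks against 4 days, Cyp2b10 was higher in both 2 weeks libraries (15.5 CPM ± 5.80 against 5.23 CPM ± 3.92, SD, n = 2), or 1.57 on the log2 scale (SE 0.59, unadjusted p = 0.0273, adjusted p = 1 in edgeR). Gpx3 was at 4.52 CPM ± 0.414 against 1.15 CPM ± 1.35, or 1.84 on the log2 scale (SE 0.93, adjusted p = 1 in edgeR). Without the filter on low counts the adjusted p in edgeR was 0.00329 for Cyp2b10 and 0.000774 for Gpx3. Many other genes were called in that fit too, and the count over all genes is given in the last section. With the other cell types included, the Gpx3 value turned negative. The other 6 had negative values, from -1.20 (Pon1) to -0.58 (Cat), all with adjusted p = 1 in edgeR. In AT2-like cells only, Pon1 (0.46), Cbr2 (0.15) and Cst8 (0.030) turned positive, and Aox3, Fmo2 and Cat stayed negative. No gene of the 13782 was called (0%), 229 (1.66%) had an unadjusted p under 0.05, and DESeq2 called 19. With 2 libraries a group, these tests leave wide errors around each of the 8 genes.

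In AT2-like cells alone, a fit added after the data had been seen, Pon1 was lower in RFP than in YFP at 4 days at -2.07 on the log2 scale (SE 0.45, adjusted p = 0.0103 in edgeR over 11706 genes). The Pon1 counts behind it were 184 and 0 UMIs in RFP against 448 and 5 UMIs in YFP. Without the first 4 days YFP library its adjusted p was 0.954 at -1.77 on the log2 scale, and without the first 4 days RFP library, which leaves 0 UMIs in RFP, it was 0.0631 (edgeR). The direction was the same in both. Without the second RFP or YFP library it was 0.0441 and 0.0113. The other 7 genes had an adjusted p of 1, which for Gpx3 says nothing of RFP against YFP, since it held at most 1 UMI in each 4 days library and passed the filter through Confetti alone. Without the first RFP library Cst8 was called (adjusted p = 0.0166 in edgeR, beside 0.293% of genes), on 1 UMI in the 1 RFP library left, with the spread taken from the other groups. In this fit 16 genes (0.137%) were called in RFP against YFP at 4 days and 13 (0.111%) in YFP between the times, none of the latter among the 8.

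RFP against YFP cells at 2 weeks was among the comparisons that earlier results had shown, so it is described only. The log2 fold changes were -1.95 for Gpx3, -3.54 for Pon1, -3.60 for Cyp2b10, -2.62 for Cbr2, -1.20 for Aox3, 0.66 for Fmo2, -0.97 for Cat and -2.38 for Cst8. Over all genes edgeR called 0 here (0%), 2252 (16.3%) had an unadjusted p under 0.05 and DESeq2 called 460. Against Confetti, 738 genes (5.35%) were called for 2 weeks RFP, of which 473 (3.43%) were higher and 265 (1.92%) lower. For 2 weeks YFP 6 genes (0.0435%) were called, for 4 days YFP 4 (0.029%), and for 4 days RFP 0 (0%), where 1213 (8.8%) had an unadjusted p under 0.05 and DESeq2 called 276. All these share the 2 Confetti libraries.

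Several of the genes were also measured in cells outside the alveolar clusters. One set-aside cluster of 233 cells, led by Ifitm3, Id3, Hpgd and Vim, held both mesenchymal markers (Col1a1 in 45.9% and Col3a1 in 47.2% of cells) and endothelial ones (Cdh5 in 58.4% and Egfl7 in 60.5%), and is called the mixed cluster. Gpx3 in the mixed cluster was at 309 CPM in Confetti (126 UMIs in 106 cells) and 314 CPM in Red2Kras (273 UMIs in 127 cells). By library it was at 255 and 355 CPM in Confetti and at 275, 365, 259 and 403 CPM in the first RFP and YFP libraries at 4 days and the first RFP and YFP libraries at 2 weeks. The second 2 weeks RFP library had 3 UMIs in 4 such cells (55.5 CPM), the second 2 weeks YFP library 6 UMIs in 1 cell, and the second 4 days libraries held none of these cells. In the separate endothelial cluster, Col1a1 and Col3a1 were in 0% of cells. In alveolar cells the 6 mesenchymal markers summed to 0.242 and 0.851 CPM in Confetti and to at most 1.76 CPM in Red2Kras libraries, with 1 to 3 of the 6 at 0 in Confetti. In ciliated cells Gpx3 was at 45.8 CPM in Confetti (90 cells, 29 UMIs) and 3.55 CPM in Red2Kras (172 cells, 7 UMIs), and in endothelial cells at 42.9 CPM (20.6 to 78.9) and 14.3 CPM (6.55 to 27.2), beside the immune levels of 29.7 and 6.29 CPM given above.

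The other genes varied between cell types and lines. Ciliated cells held Cyp2b10 at 190 CPM in Confetti and 107 CPM in Red2Kras, Pon1 at 64.8 and 56.3 CPM, Cbr2 at 5629 and 3647 CPM, and Cat at 142 and 98.3 CPM. Fmo2 in the mixed cluster was at 477 and 485 CPM in the Confetti libraries, 504 and 412 CPM in the first RFP and YFP libraries at 4 days, and 636 and 1490 CPM in the first ones at 2 weeks. The 875 CPM over all Red2Kras cells of this cluster includes 268 UMIs from 4 cells of the second 2 weeks RFP library (4960 CPM). In endothelial cells Fmo2 was at 185 CPM in Confetti and 140 CPM in Red2Kras. Pon1 in endothelial cells was at 30.1 CPM (7 UMIs) in Confetti and 1.59 CPM (1 UMI) in Red2Kras. Cst8 was at 15.8 and 1.01 CPM in ciliated cells, and at 14.7 CPM and 0 UMIs in the mixed cluster. The intervals around these values cover counting error only, and no test across libraries was run.

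Club cells are also known for Cbr2, Cyp2b10 and Fmo2. The 7 club markers summed over alveolar cells to 1904 and 1408 CPM in Confetti with none at 0, and to 81.6 to 967 CPM in Red2Kras libraries, where 0 to 4 of the 7 were at 0. Their part in these results was not tested.

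**Figure D3:**
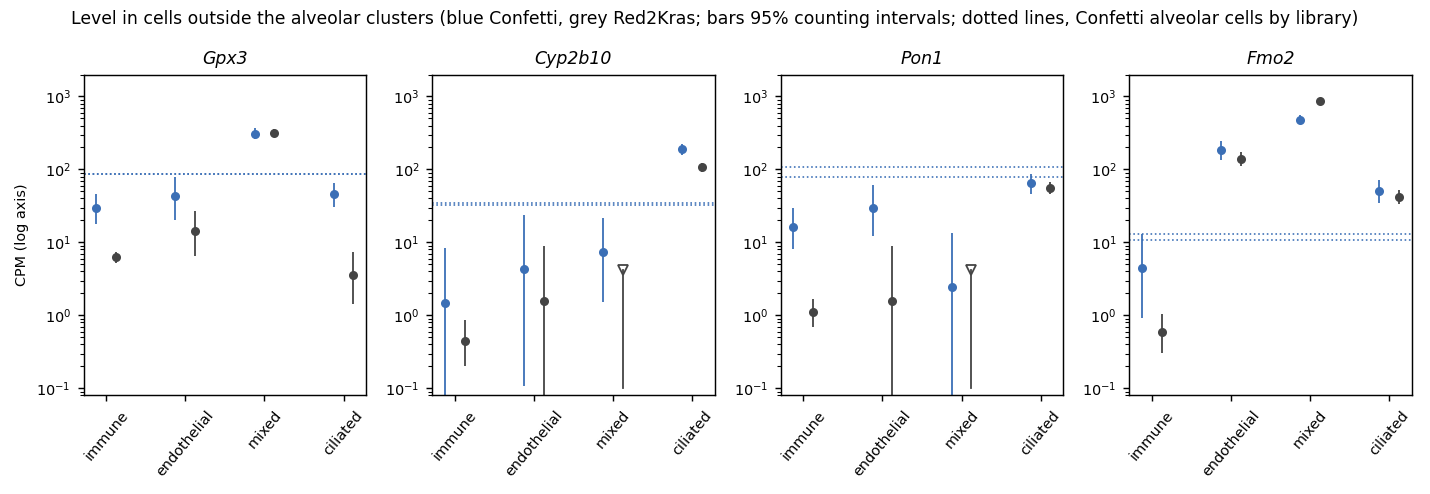
CPM (log axis) of Gpx3, Cyp2b10, Pon1 and Fmo2 in immune, endothelial, mixed-cluster and ciliated cells of Confetti (blue) and Red2Kras (grey) libraries, with 95% counting intervals, an open triangle for the upper limit at 0 UMIs, and dotted lines at the levels of the 2 Confetti libraries in alveolar cells. Gpx3 in the mixed cluster is at 309 CPM and 314 CPM in the 2 lines.

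Sex could be compared within the 4 first Red2Kras libraries, where both sexes were present. Female cells of Red2Kras lungs had Gpx3 at 0.161 CPM in RFP and 0.267 CPM in YFP cells at 4 days, and at 1.68 CPM in RFP and 5.74 CPM in YFP cells at 2 weeks, against 87.1 CPM or more in the Confetti libraries, whose called cells were all female. Male cells of the same libraries were at 0, 0, 2.22 and 3.51 CPM. Low Gpx3 was thus present in female and male cells. Aox3 was higher in female cells at 4 days, at 129 against 78.4 CPM in RFP and 191 against 145 CPM in YFP. Aox3 was lower in female cells at 2 weeks, at 19.4 against 40.1 CPM in RFP and 36.6 against 76.0 CPM in YFP, and in all 4 libraries the 95% counting intervals did not overlap. Fmo2 in 2 weeks RFP was at 7.80 CPM in female and 2.41 CPM in male cells, and Cyp2b10 in 2 weeks YFP at 18.1 and 8.16 CPM. The sexes also differed in the AT2-like cells they held, 150 of 1140 female and 97 of 2097 male cells in 2 weeks RFP, and 194 of 568 and 201 of 1637 in 2 weeks YFP. The part of this in these values was not tested. Cells of 1 library share their pool of mice, so these are descriptions without a test.

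**Figure D4:**
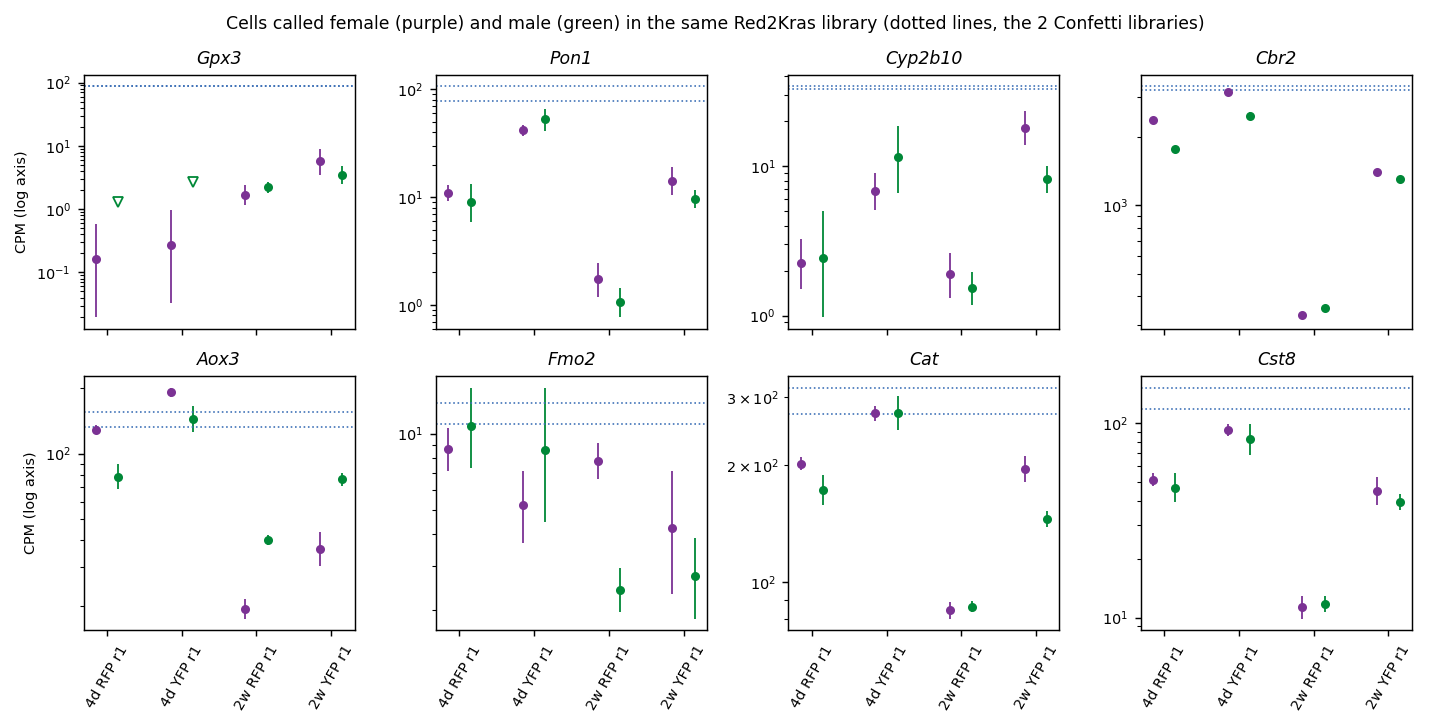
CPM (log axis) of each gene in cells called female (purple) and male (green) in the 4 first Red2Kras libraries, with 95% counting intervals, open triangles for upper limits at 0 UMIs, and dotted lines at the 2 Confetti libraries. Gpx3 lies at or below 5.74 CPM in both sexes, far under the Confetti lines.

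The genes whose pattern over the 10 libraries was most like each of the 8 are given as a description, by Pearson's r of log2(CPM + 1), where the points share the 2 Confetti libraries and the depth of each library. For Gpx3 they were Gm34756 (0.943), Slc7a8 (0.934), an amino acid transporter, and Eif3j2 (0.920). Slc7a8 was at 7.55 and 8.44 CPM in Confetti and at most 0.175 CPM in the Red2Kras libraries. For Pon1 they were Slc13a3 (0.990), Gm9898 (0.982) and Col23a1 (0.976), and for Cyp2b10 Pip5kl1 (0.967), Fuk (0.966) and Nprl2 (0.964). For Cbr2 they were Cyp4v3 (0.993), Atp7b (0.991) and Pygo1 (0.990), and for Aox3 Selenop (0.993), Arhgef38 (0.991) and Adam22 (0.988). For Fmo2 they were Dync2h1 (0.973), Pde4d (0.966) and the club-cell P450 Cyp2f2 (0.964). For Cat they were Espn (0.995), Dpyd (0.995) and Dopey1 (0.993), and for Cst8 Cdc42ep4 (0.991), Adamtsl1 (0.990) and Azin2 (0.987). Among the 8, the lowest r was 0.438 (Gpx3 with Aox3) and the highest 0.978 (Cat with Cst8). Gpx3 ran from 0.438 to 0.822 with the other 7.

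Other genes of detoxification were taken from 6 lists that were fixed without regard to how they moved here, though with earlier results known. Of 149 genes 126 were tested, and 7 were called for 2 weeks RFP against Confetti, 6 higher and 1 lower, beside 5.35% of all genes (31.1% had an unadjusted p under 0.05). Here the Confetti arm is 2 colours of 1 collection, which the fit takes as 2 samples. Glutathione S-transferase omega Gsto1 was at 1.27 and 0.982 CPM in Confetti, 82.6 and 119 CPM in 2 weeks RFP, and 6.18 and 33.5 CPM in 2 weeks YFP, or 6.49 on the log2 scale (SE 1.31, adjusted p = 0.0439 in edgeR). Gstm5, another glutathione transferase, rose by 3.51 (SE 0.66, adjusted p = 0.0417 in edgeR), and Gclm, the modifier subunit of the enzyme that starts glutathione synthesis, by 1.25 (SE 0.25, adjusted p = 0.0421 in edgeR). Prdx4, a peroxiredoxin of the endoplasmic reticulum, rose by 2.14 (SE 0.48, adjusted p = 0.0459 in edgeR). The aldo-keto reductase Akr1b8 rose by 2.09 (SE 0.48, adjusted p = 0.0468 in edgeR) and Ahr, the aryl hydrocarbon receptor, by 1.35 (SE 0.27, adjusted p = 0.0442 in edgeR). The P450 Cyp2d22 fell by 2.87 (SE 0.68, adjusted p = 0.0499 in edgeR).

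By list, the median log2 fold change was 0.36 for glutathione and NRF2 target genes (31 tested, 3 higher, 10 with an unadjusted p under 0.05) and 0.09 for antioxidant proteins (18 tested, 1 higher, 6 unadjusted). It was -0.53 for phase I and II enzymes (24 tested, 1 higher, 1 lower, 14 unadjusted), -0.26 for regulators (17 tested, 1 higher, 6 unadjusted), -0.44 for the peroxisome (17 tested, 0 called, 4 unadjusted, all lower) and -0.15 for relatives of the 8 genes (19 tested, 0 called, 9 unadjusted, 4 higher and 5 lower). The median over all genes was 0.03. No list gene was called in any other comparison by edgeR. The 7 calls were lost when any 2 weeks or 4 days YFP library was left out, when the other cell types were added, and became 35 in DESeq2.

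**Figure D5:**
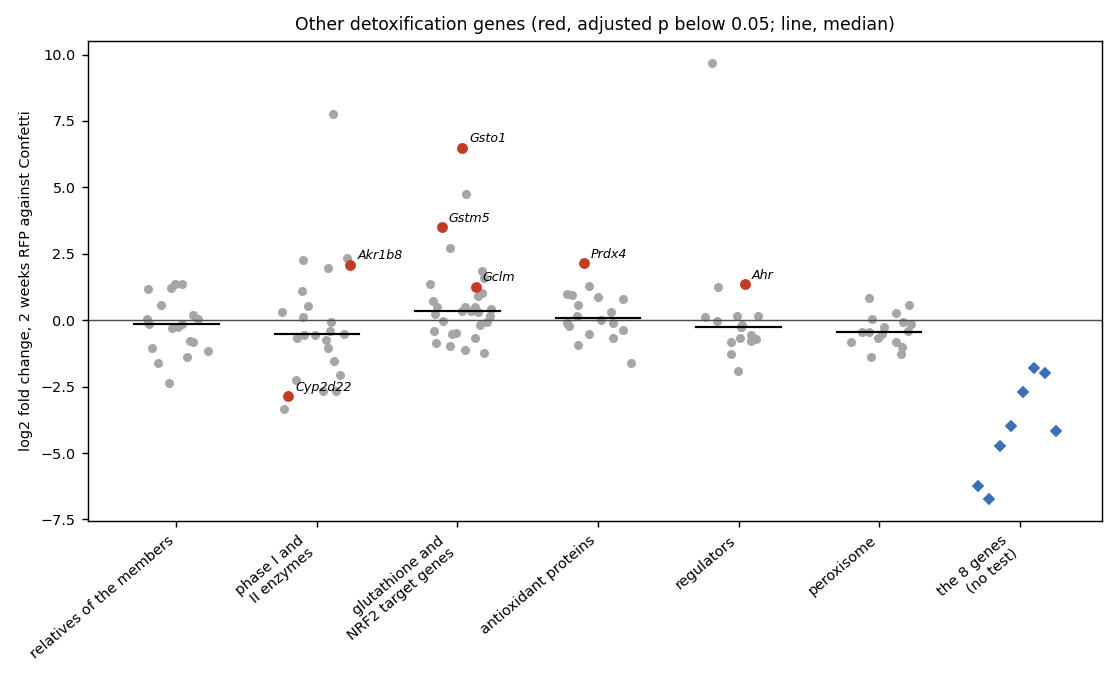
Log2 fold change of 2 weeks RFP against Confetti for each gene of the 6 lists, in red where called by edgeR, with a line at each list's median, and blue diamonds for the 8 genes without a test. All 8 genes lie between -6.73 and -1.79, and the 6 red points above 0 include Gsto1 at 6.49.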

How the data were processed

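The authors deposited UMI counts per gene and cell barcode for 10 libraries of droplet-based single-cell RNA, aligned to GRCm38 with Cell Ranger. The submitters' notes name version 3.1.0 and the file header 5.0.1, and the labels name v2 chemistry where the methods name v3. Empty droplets had been removed by the authors, and no cell filter is stated for the deposited counts.

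Barcodes with under 1000 genes, over 50000 UMIs or over 15% mitochondrial UMIs were removed (9152, 119 and 1534, which overlap). The rest were clustered (scanpy 1.11.5, igraph 0.11.9, 5000 variable genes, 30 components, 20 neighbours, resolution 0.8). Immune (2420), ciliated (262) and endothelial (201) clusters, and 1 that held endothelial and mesenchymal markers (233), were set aside, and alveolar clusters were named from fixed markers. The score limit of 0.25 was chosen with the clusters in view. No doublets were removed, and 239 barcode sequences (0.572%) occurred in more than 1 library.

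Counts were summed per library over alveolar cells and tested with edgeR 4.0.16 (quasi-likelihood, TMM, Benjamini-Hochberg, adjusted p threshold 0.05, all groups in 1 fit). Alternatives were DESeq2 1.42.0, no filter on low counts, other cell types included, a replicate block, each library left out and thinned cells. Alternatives added after seeing the data were AT2-like cells only and subsets of libraries. On data simulated for 2 weeks RFP against Confetti over 13782 genes, 148 of 200 changed genes and 9 unchanged ones were called. The simulated libraries were independent, with a dispersion (spread between libraries) of 0.15. The 2 Confetti libraries are colours of 1 collection, so these counts need not hold for the real data. Replicates differed by more than sampling noise (chi-square per degree of freedom 41.9 to 198).

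The 8 genes and the lists were chosen with earlier results of these data known. Named genes are the 8, the 3 genes most correlated with each, and up to 4 called genes with the largest change per list. Intervals are exact 95% Poisson or binomial ones and, like the limit of 3 counts for 0 UMIs, cover counting error only. Sex calls per cell used Xist and 4 Y-linked genes. Coordinates are from GENCODE M21.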

Additional observations from a re-analysis of the deposited data

Results flagged for a closer look

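Signal for 4 of the 8 genes was present in cells that the comparisons did not use, in the Red2Kras libraries, with a lower 95% counting bound above both Confetti alveolar libraries. A mixed cluster with mesenchymal and endothelial markers held Gpx3 at 314 CPM and Fmo2 at 875 CPM. Endothelial cells held Fmo2 at 140 CPM. Ciliated cells held Cyp2b10 at 107 CPM, Cbr2 at 3647 CPM and Fmo2 at 42.6 CPM. These values come from 127 mixed-cluster, 129 endothelial and 172 ciliated cells, and no test across libraries was run.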

How the results depend on the processing

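Depth and the 2 libraries per group limit every comparison, and 1 library often decided a count. Of 208 alternative values for the 8 genes in the tested comparisons, 184 kept direction and call, 5 passed the threshold where they had not before and 19 changed sign. The cause was not tested. Genes called for 4 days RFP against YFP were 100 in DESeq2, 496 with no filter on low counts, 16 in AT2-like cells only and 0 to 194 with a library left out. For 2 weeks against 4 days YFP they were 19, 188, 13 and 0 to 1. For 2 weeks RFP against YFP they were 460 in DESeq2, 1381 with no filter and 0 with any library left out. For 2 weeks RFP against Confetti they were 2208, 3246, 0 with the other cell types included, 3167 with a replicate block and 5 to 1914 with a library left out. For 2 weeks YFP against Confetti they were 99, 538, 0, 12 with the block and 0 to 7. For 4 days RFP against Confetti they were 276 in DESeq2, 821 with no filter, 10 with the block and 0 to 328. For 4 days YFP against Confetti they were 12, 134, 0 with the other cell types included, 7 with the block and 0 to 3.

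Detoxification list genes called for 2 weeks RFP against Confetti were 35 in DESeq2, 41 with no filter, 0 with the other cell types included, 41 with the replicate block and 0 to 24 with a library left out. In DESeq2 they were 1 for 4 days RFP against YFP, 4 for 2 weeks RFP against YFP and 2 for 4 days RFP against Confetti. With no filter they were 3 for 4 days RFP against YFP, 2 for 2 weeks against 4 days YFP, 20 for 2 weeks RFP against YFP, 9 for 2 weeks YFP against Confetti and 11 for 4 days RFP against Confetti. With a library left out they were 0 to 2 for 4 days RFP against YFP and 0 to 3 for 4 days RFP against Confetti. Replicate deviations across genes correlated at 0.481 between RFP and YFP at 4 days, 0.627 at 2 weeks and 0.0218 to 0.296 otherwise, and the labels say only that the numbers are shared.

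Signs changed for Fmo2 at 4 days RFP against YFP (-0.64 with the other cell types included, -0.15 with the replicate block), for Gpx3 at 2 weeks against 4 days YFP (-0.12 with the other cell types included), and in AT2-like cells only for Pon1 (0.46), Cbr2 (0.15) and Cst8 (0.030) at 2 weeks against 4 days YFP. With a library left out, 4 days RFP against YFP ran from -3.57 to 1.06 for Gpx3, -5.62 to 0.51 for Pon1, -2.71 to 0.50 for Cbr2, -2.84 to 0.88 for Aox3 and -4.12 to 1.62 for Fmo2. For 2 weeks against 4 days YFP it ran from -2.08 to 1.41 for Pon1, -1.28 to 0.47 for Cbr2, -1.82 to 0.52 for Aox3, -2.08 to 0.53 for Fmo2 and -1.17 to 0.13 for Cst8. In these fits over all alveolar cells, the libraries that turned a sign were the 4 days RFP and YFP libraries. In AT2-like cells only, leaving out a 2 weeks YFP library also turned signs at 2 weeks against 4 days YFP. This was so for Gpx3, Aox3, Cat and Cst8. With no filter the adjusted p in edgeR was 4.90e-07 for Pon1 and 0.0101 for Cyp2b10 at 4 days, and 0.000774 for Gpx3 and 0.00329 for Cyp2b10 between the times. The count of the 8 genes low in all libraries was 2 with the libraries numbered 1 and 6 with those numbered 2. The count of the 8 genes whose share of cells with a UMI was below both Confetti libraries in all 8 was 4, and 7 after thinning.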
